A study of Mus musculus with 4 samples.

Results

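Killer lectin-like receptors are C-type lectin proteins of natural killer (NK) cells and activated CD8 T cells, and 6 of them were examined here in mouse CD8 T cells together with Hcst, which encodes a signalling adaptor, and Nkg7, which encodes a cytotoxic granule protein. The genes were Klrk1, Klrd1, Klrc1, Klrc2, Klrg1, Klre1, Hcst and Nkg7, chosen by name, 8 of the 24312 genes in the deposited table. The cells were P14 CD8 T cells on the C57BL/6 background, which share 1 transgenic receptor, specific for the viral peptide gp33. All of them were given 100 ng/ml gp33 for 1 day, spin transduced and activated for another 1 day, then grown in 10 ng/ml IL-2 (2 days), sorted as CD8+ GFP+ and held in 1 ng/ml IL-2 (2 days). The MIG group (2 libraries) carried the retrovirus MSCV-IRES-GFP, and the BATF group (2 libraries) the same vector with BATF, a transcription factor of the AP-1 family that binds DNA with JUN proteins and with IRF4. The BATF cells are thus a retroviral overexpression model in cultured T cells of 1 specificity, and the labels speak of biological replicates without saying whether these were separate mice. The comparison asks whether added BATF goes with other levels of these transcripts.

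Some of these receptors activate the cell and others restrain it. NKG2D (Klrk1) recognises stress-induced relatives of MHC class I and signals through DAP10 (Hcst), a small adaptor that recruits phosphoinositide 3-kinase and GRB2. CD94 (Klrd1) has little cytoplasmic tail of its own and pairs with NKG2A (Klrc1), whose inhibitory motifs recruit phosphatases, or with the activating NKG2C (Klrc2), and these pairs bind Qa-1 (H2-T23). KLRG1 (Klrg1) is an inhibitory receptor for cadherins and a marker of terminally differentiated effector T cells, KLRE1 (Klre1) is a receptor described mainly on NK cells, and NKG7 sits in the membrane of cytotoxic granules and takes part in their release.

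The libraries held 19004726 to 24795707 assigned fragments, and within either group the replicate libraries differed beyond counting error. Batf itself stood at 36.1 and 26.5 CPM (counts relative to library size after trimmed-mean, TMM, scaling) in MIG and at 1342 and 934 in BATF. Cd8a ran from 423 to 750 CPM and Cd8b1 from 498 to 675, so the CD8 label of the cells was matched by both of its defining genes. The defining NK cell genes Ncr1 and Klrb1c stayed at or below 0.105 and 0.316 CPM in every library. Among the 16 listed markers of NK and gamma-delta T cells found in the table, 11 were below 1 CPM in all libraries. Their summed level was 58.8 and 78.8 CPM in MIG and 91.1 and 123.6 in BATF, most of it from Nfil3 (42.3 and 51.8 against 77.3 and 102.4 CPM), a factor that T cells also use. Nfil3 did not pass in edgeR (adjusted p = 0.0554) and was called higher in BATF by DESeq2 (adjusted p = 6.79e-06), and its part in the results was not tested. Without Nfil3 the sum was 16.5 to 27.0 CPM in MIG and 13.8 to 21.1 in BATF. In bulk RNA, fewer cells of a type and less RNA per cell cannot be told apart.

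In these cells the 8 genes fell into 4 tiers of level, and with all libraries in the edgeR fit no difference between the groups passed the test. Nkg7 was among the most abundant transcripts, Hcst and Klrd1 were high, Klrk1 and Klrc1 were low, and Klrc2, Klrg1 and Klre1 were near the limit of detection. By edgeR (quasi-likelihood, Benjamini-Hochberg adjustment over 13008 genes), 0 of the 5 genes that passed the filter on low counts were called, where 1.09% of all tested genes were called, 0.884% higher and 0.208% lower in BATF. At an unadjusted p under 0.05 there was 1 gene higher (Klrk1) and 1 lower (Hcst), where 10.8% of all tested genes passed. DESeq2 gave adjusted p-values for the same 5 and called 0, where it called 2.73% of genes. The 5 also had 0 calls in edgeR with relative log expression factors (1.12% of tested genes called), in limma on log2(FPKM + 1) (0.442%) and log2(FPKM + 0.1) (0.49%), and in edgeR with 1 library left out, namely MIG replicate 1 (1.79%) or 2 (4.27%), or BATF replicate 1 (2%) or 2 (1.79%). In edgeR without a count filter all 8 were tested and 0 called (1.53% of tested genes). Blocking on replicate number called 3 of the 5, where it called 11.6% of tested genes. Levels of BATF and MIG did not overlap in 4 of the 5, Klrk1 and Klrc1 being higher in both BATF libraries and Hcst and Nkg7 lower. Such separation occurred in 38.7% of all tested genes.

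**Figure D1:**
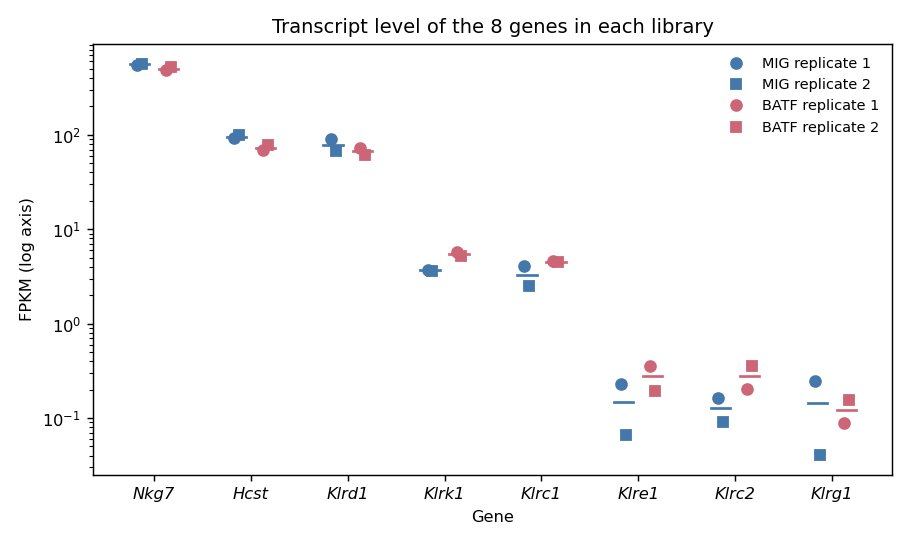
Deposited FPKM (log axis) of the 8 genes in each of the 4 libraries, with circles for replicate 1, squares for replicate 2 and a horizontal bar for the mean of each group. Nkg7 lies between 485.6 and 569.8 FPKM, and Klre1, Klrc2 and Klrg1 reach at most 0.360 FPKM.

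Levels of different genes were compared per transcript length, as deposited FPKM (fragments scaled by transcript length and library size). Over the 4 libraries Nkg7 ran from 485.6 to 569.8 FPKM, above 98.6% to 98.9% of the tested genes of the same library. Hcst followed with 69.2 to 99.2 FPKM and Klrd1 with 61.5 to 90.2, and these ranges overlapped. The next step down was large, to Klrk1 with 3.61 to 5.70 FPKM and Klrc1 with 2.51 to 4.61, which overlapped each other and lay above 30.6% to 41.3% of tested genes. Klre1 (0.0659 to 0.360), Klrc2 (0.0909 to 0.353) and Klrg1 (0.0404 to 0.247 FPKM) could not be ranked among themselves. This order depends on the transcript lengths the authors used, since 1 FPKM stood for 65.8 scaled fragments of Klrk1, 38.0 of Klrc1, 14.4 of Klrd1, 13.3 of Nkg7 and 5.21 of Hcst.

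The sequences just upstream of the 4 genes whose BATF and MIG levels did not overlap are shown because BATF acts on DNA and these are the stretches next to their RefSeq start sites (build GRCm38.p6, 250 bases 5′ to 3′ in the direction of transcription). The counts were made on mm9, so these coordinates apply to the sequences alone. Capitals mark TGTGGT, the core letters of RUNX sites (ACCACA on the other strand), and GGTGTGA, a T-box letter string, both searched on both strands.
Klrk1, chr6:129623865-129624114, minus strand: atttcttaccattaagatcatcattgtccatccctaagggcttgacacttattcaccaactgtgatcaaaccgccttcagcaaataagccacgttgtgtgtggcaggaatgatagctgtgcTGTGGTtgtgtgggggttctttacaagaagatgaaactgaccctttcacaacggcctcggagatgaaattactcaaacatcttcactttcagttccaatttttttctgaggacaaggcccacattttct
Klrc1, chr6:129678974-129679223, minus strand: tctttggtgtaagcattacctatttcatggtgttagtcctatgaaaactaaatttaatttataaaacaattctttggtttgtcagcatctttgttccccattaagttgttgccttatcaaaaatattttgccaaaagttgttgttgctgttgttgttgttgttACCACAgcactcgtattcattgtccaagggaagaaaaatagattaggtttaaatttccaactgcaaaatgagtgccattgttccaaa
Nkg7, chr7:43436888-43437137, plus strand: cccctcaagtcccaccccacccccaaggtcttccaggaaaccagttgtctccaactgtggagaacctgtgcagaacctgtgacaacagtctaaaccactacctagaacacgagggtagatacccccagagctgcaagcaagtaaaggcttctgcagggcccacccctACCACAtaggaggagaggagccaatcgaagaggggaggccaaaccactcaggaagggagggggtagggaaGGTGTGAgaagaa
Hcst, chr7:30419855-30420104, minus strand: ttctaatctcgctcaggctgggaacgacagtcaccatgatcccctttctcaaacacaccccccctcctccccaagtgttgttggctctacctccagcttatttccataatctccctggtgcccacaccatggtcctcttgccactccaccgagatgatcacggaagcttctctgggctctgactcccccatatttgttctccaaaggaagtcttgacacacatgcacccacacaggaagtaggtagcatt

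RefSeq promoter windows were matched for 6 of the 8 genes (8 windows, since Klrc2 and Klre1 have 2 overlapping windows each). The AP-1 letters TGANTCA were in 0 of the 8 windows (both strands), against 6.75% of 32851 windows of the same length over all genes, and the IRF letters (GAAA, any 2 bases, GAAA) were also in 0, against 2.98%. TGTGGT was in 6 of the 8 windows, against 14.0% of all windows, and both overlapping windows of Klrc2 hold the same sites. By gene it was in 5 of the 6, Hcst being the exception, a count for which no share over all genes was computed. It began 129 bases before the start site in Klrk1, 87 in Klrc1 and 83 in Nkg7. GGTGTGA was in 1 window, 13 bases before the start of Nkg7, against 3.33% of all. The motifs did not overlap one another and were picked after the expression values were known. A match describes letters, and a window without one says nothing of a factor's binding elsewhere.

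Klrk1, the NKG2D receptor, had the largest difference of the 5 tested genes. It stood at 11.40 and 11.36 CPM in MIG and at 17.6 and 15.9 CPM in BATF, from 234 to 346 fragments a library. Both BATF libraries lay above both MIG libraries, and the MIG libraries were nearly equal. The log2 fold change was 0.56 ± 0.14 SE (unadjusted 95% interval 0.23 to 0.88, n = 2 per group), and it did not pass (edgeR adjusted p = 0.155). It stayed between 0.48 and 0.63 in edgeR fits with any 1 library left out.

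Hcst, the DAP10 adaptor that carries the NKG2D signal, pointed the other way. Its levels were 22.2 and 24.7 CPM in MIG against 17.1 and 18.8 CPM in BATF, from 324 to 543 fragments. Both BATF libraries were lower than both MIG libraries. The log2 fold change was −0.38 ± 0.13 SE (95% interval −0.69 to −0.07, n = 2 per group) with an edgeR adjusted p of 0.318. The T cell identity genes Cd8a and Cd8b1 lay in the same direction, with log2 fold changes of −0.46 and −0.29 (edgeR adjusted p = 0.337 each). The size of the Cd8a difference depended on which BATF library was kept, since Cd8a stood at 423 CPM in BATF replicate 1 and 599 in BATF replicate 2. Its log2 fold change was −0.74 with only BATF replicate 1 kept and −0.23 with only BATF replicate 2 kept. Fits that dropped a MIG library gave −0.55 (replicate 1 dropped) and −0.37 (replicate 2 dropped). The 8 identity markers summed to 3037 and 3020 CPM in MIG and 2484 and 2709 in BATF. Their part in the Hcst values was not tested.

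Klrk1 and its adaptor Hcst can also be set against each other within each library. Klrk1 FPKM was 4.03% and 3.64% of Hcst FPKM in the MIG libraries and 8.23% and 6.71% in the BATF libraries. The mean difference was 1.94-fold, and it ran from 1.67-fold to 2.26-fold over the 4 pairs of a BATF and a MIG library. Because Klrk1 was higher and Hcst lower in both BATF libraries, this ratio had to separate. It adds nothing beyond the values of each gene. The percentages rest on the transcript lengths the authors used, since 1 FPKM stood for 65.8 scaled fragments of Klrk1 and 5.21 of Hcst. The inhibitory pair gave a similar picture. Klrc1 was 4.51% and 3.69% of Klrd1 in MIG and 6.40% and 7.27% in BATF, a 1.67-fold mean difference (1.42-fold to 1.97-fold over the pairs). The ratio of the receptors Klrk1 and Klrc1 overlapped, at 0.919 and 1.44 in MIG and 1.24 and 1.16 in BATF. Further ratios did not overlap, Klrd1 over Klrk1 being 24.1 and 18.8 in MIG and 12.7 and 11.8 in BATF, and Nkg7 over Hcst 5.89 and 5.74 against 7.01 and 6.73. So separation was seen for Nkg7 and Hcst too, which are not a receptor and its partner. All these ratios were chosen after the values were seen. With 2 libraries against 2 a two-sided exact permutation test cannot go below p = 0.333, so none was run.

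**Figure D2:**
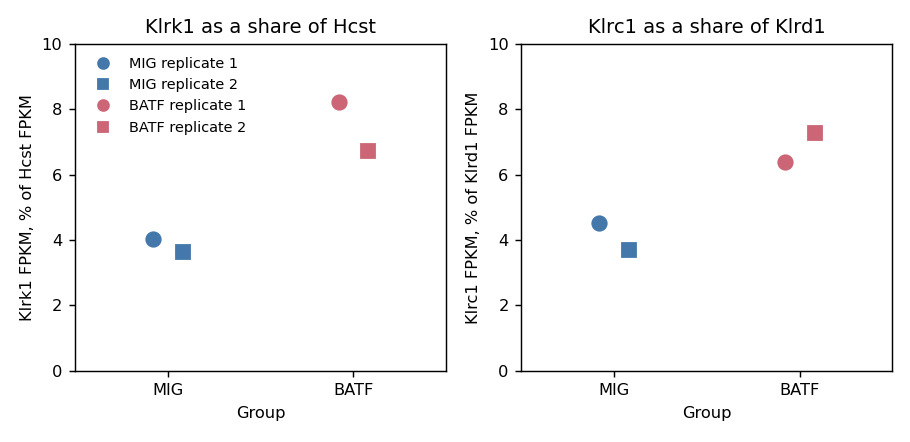
Klrk1 FPKM as a percentage of Hcst FPKM (left) and Klrc1 FPKM as a percentage of Klrd1 FPKM (right) in each library, with circles for replicate 1 and squares for replicate 2. Both BATF libraries lie above both MIG libraries in each panel, at 6.71% or more against 4.03% or less on the left and at 6.40% or more against 4.51% or less on the right. The separation on the left had to follow, since Klrk1 was higher and Hcst lower in both BATF libraries. The percentages depend on the transcript lengths the authors used.

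CD94 and NKG2A were less settled. Klrd1, the CD94 chain, stood at 59.8 and 46.7 CPM in MIG and 49.2 and 41.3 CPM in BATF, so the groups overlapped. Its log2 fold change was −0.24 ± 0.15 SE (95% interval −0.59 to 0.11, n = 2 per group, edgeR adjusted p = 0.695). MIG replicate 1 was the highest library, and without it the value was −0.04. Without MIG replicate 2 the value was −0.41, and without BATF replicate 1 and 2 it was −0.37 and −0.12. Klrc1, the inhibitory NKG2A chain, stood at 7.07 and 4.56 CPM in MIG and 8.17 and 7.95 CPM in BATF, from 94 to 173 fragments. The BATF libraries were close together and above both MIG libraries, which differed from each other. The log2 fold change of 0.46 ± 0.23 SE (95% interval −0.09 to 1.02, n = 2 per group, edgeR adjusted p = 0.580) became 0.82 without MIG replicate 1 and 0.18 without MIG replicate 2.

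Nkg7, the granule protein, was measured with 5791 to 8158 fragments a library and differed least. It stood at 333.3 and 360.9 CPM in MIG and 305.3 and 322.4 CPM in BATF, lower in both BATF libraries by a small margin. The log2 fold change was −0.15 ± 0.08 SE (n = 2 per group, edgeR adjusted p = 0.654). Its 95% interval, −0.34 to 0.05, corresponds to 0.788-fold to 1.04-fold.

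**Figure D3:**
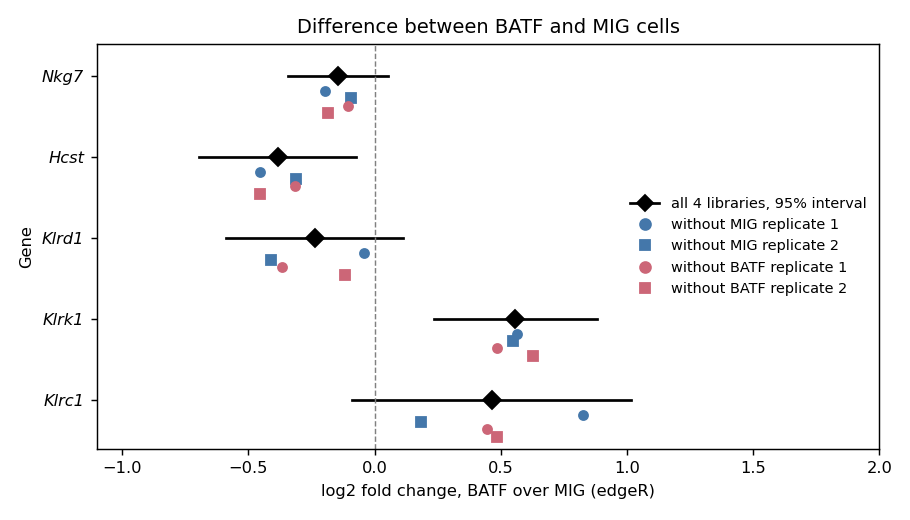
Log2 fold change of BATF over MIG from edgeR for the 5 tested genes, as black diamonds with their unadjusted 95% intervals, and as coloured points below each diamond with 1 library left out. Klrk1 stays between 0.48 and 0.63 in those fits, and Klrc1 moves between 0.18 and 0.82.

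The other 3 receptors were near silent in both groups and did not pass the filter, so no fold change is given. Klrg1 counts were 7 and 1 in MIG against 2 and 4 in BATF, Klre1 had 4 and 1 against 5 and 3, and Klrc2 had 2 and 1 against 2 and 4. A count of 3 fragments corresponds to 0.121 to 0.158 CPM in these libraries. Summed over a group, Klre1 had 5 fragments in MIG (exact Poisson 95% interval 1.62 to 11.7) and 8 in BATF (3.45 to 15.8), intervals for counting error alone. The intervals of the 2 groups overlapped for each of the 3 genes, so at this depth small or moderate differences could not be seen.

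Klrc1 and Klrc2 have partly identical transcripts, which bears on how far their counts can be kept apart. Of the distinct stretches of 50 bases in GENCODE M21 coding transcripts of Klrc1, 38.6% also occurred in another gene, mostly Klrc2, and at 100 bases 14.6% did. For Klrc2 the shares were 29.4% and 12.8%, and for the other 6 genes they were 0. All 32 deposited fragment values of the 8 genes were exactly whole as deposited, whereas 19 of 80 values of the 20 Klra genes, a family of close copies, carried fractions. Klrc1 FPKM was 12.7 to 27.6 times Klrc2 FPKM over the 4 libraries. The sources used here do not say how fragments that fit both genes were assigned, so the values of this pair are uncertain.

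Of the 8 genes, 5 lie next to one another in the natural killer gene complex of chromosome 6, in the RefSeq order Klre1, Klrd1, Klrk1, Klrc3, Klrc2, Klrc1, with Klrc3 between. Levels along this row differed widely between neighbours. Klrd1, Klrk1 and Klrc1 were at 2.51 FPKM or more in every library, while Klre1, Klrc3 and Klrc2 were at 0.360 FPKM or less. Between Cd69 and Klra1, 28 protein-coding genes were in the table. Of these, 6 had at least 1 FPKM in all libraries, namely Cd69, Clec12a, Gabarapl1, Klrd1, Klrk1 and Klrc1, and 21 were below 1 FPKM in all. Klra5 crossed that line, at 0.258 and 0.986 FPKM in MIG and 0.162 and 1.00 FPKM in BATF. Outside the complex, Hcst lies on chromosome 7 next to Tyrobp, which encodes the adaptor DAP12. Tyrobp was at 0.337 and 1.03 FPKM in MIG and 0.141 and 0.749 FPKM in BATF, from 8 fragments or fewer a library, far below Hcst in every library.

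**Figure D4:**
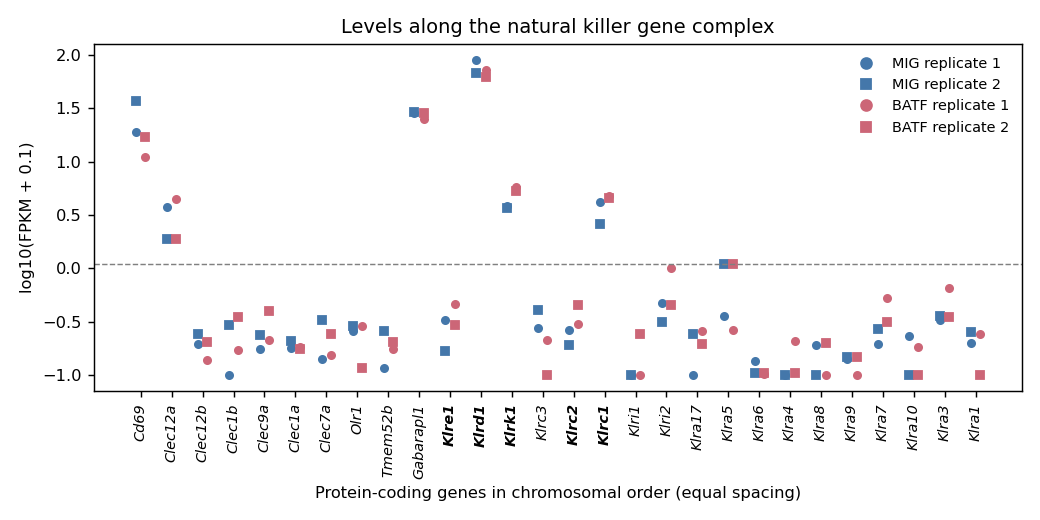
Log10(FPKM + 0.1) of the protein-coding genes from Cd69 to Klra1 in chromosomal order with equal spacing, names of the genes studied here in bold, circles for replicate 1, squares for replicate 2, and a dashed line at 1 FPKM. Klrd1, Klrk1 and Klrc1 stand above the line, at 2.51 FPKM or more, and Klre1, Klrc3 and Klrc2 below it.

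The wider family and its pathway were read from lists of genes that belong with these receptors. Of 29 other lectin receptor genes in the table, 24 were below 1 CPM in every library and 7 passed the filter. By edgeR 0 of the 7 were called, where 1.09% of all tested genes were called. DESeq2 gave no adjusted p for Olr1 and called 0 of the others, where it called 2.73% of genes. At an unadjusted edgeR p under 0.05 there were 0 higher and 1 lower, where 10.8% of all tested genes passed in either direction. The lower gene was Cd69, an early activation receptor encoded in the same complex, at 26.4 and 54.5 CPM in MIG and 16.1 and 24.4 CPM in BATF. Its log2 fold change was −0.99 ± 0.34 SE with an adjusted p of 0.329 in edgeR. Among the fits with 1 library left out, it passed without MIG replicate 1 (0.0179) and without BATF replicate 2 (0.0468). Clec2d, a ligand of NKR-P1 receptors, was expressed and close in all libraries, at 28.4 to 36.4 FPKM.

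Among ligands, 9 of 19 genes passed the filter, edgeR and DESeq2 called 0, and 0 had an unadjusted p under 0.05. DESeq2 gave no adjusted p for the ligand gene Cdh4. The shares over all tested genes were 1.09% in edgeR, 2.73% in DESeq2 and 10.8% at the unadjusted p. H2-T23, which encodes the Qa-1 ligand of CD94 and NKG2A, stood at 180 and 142 CPM in MIG and 153 and 126 CPM in BATF, so the groups overlapped. Its log2 fold change was −0.20 ± 0.14 SE, with an adjusted p of 0.749 in edgeR. B2m, the light chain of MHC class I, ran from 1821 to 1966 CPM. Over the tested ligands the median log2 fold change was 0.02, against −0.01 over all tested genes.

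Of 24 tested adaptors and kinases of activating receptors 0 were called by edgeR, where 1.09% of all tested genes were called. At an unadjusted p under 0.05 there were 3 higher and 4 lower of the 24, where 10.8% of all tested genes passed in either direction, and the median was −0.05. Of 9 tested phosphatases and negative regulators that inhibitory receptors use, 0 were called by edgeR. At an unadjusted p under 0.05 there were 2 higher and 0 lower, and the median was 0.06. DESeq2 called 0 in both lists. The granule exocytosis machinery, the setting in which NKG7 works, had 2 of 23 tested genes called, both higher in BATF, where 0.884% of all tested genes were called higher. DESeq2 also called 2 of its genes higher, where it called 2.73% of all in either direction. At an unadjusted p under 0.05 there were 3 higher and 1 lower, and the median was 0.04. Stx11, a syntaxin needed for cytotoxic granule release, rose from 16.0 and 16.8 to 28.6 and 27.2 CPM. The log2 fold change was 0.77 ± 0.12 SE, with an adjusted p of 0.0416 in edgeR. Its call was lost without MIG replicate 1 (0.0548), without BATF replicate 1 (0.0799), without BATF replicate 2 (0.0586) and in limma on log2(FPKM + 1) (0.0591). Sytl2, a synaptotagmin-like protein that tethers granules, rose from 65.5 and 64.2 to 96.2 and 101 CPM. The log2 fold change was 0.60 ± 0.08 SE, with an adjusted p of 0.0263 in edgeR. Leaving out BATF replicate 2 ended this call (0.0939), as did limma on log2(FPKM + 1) (0.0905). In both genes both BATF libraries lay above both MIG libraries.

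The genes nearest to Klrk1 in pattern over the 4 libraries, by Euclidean distance between centred profiles of log2(CPM + 1) among 9356 genes, were Hif1a (0.00684), Marveld2 (0.0244) and Ppt1 (0.0395), and 15 genes lay within 0.1. The nearest to Nkg7 were Mthfd1 (0.0148), Psma1 (0.0164) and 0610007P14Rik (0.0167), and 628 genes lay within 0.1. With 4 libraries many profiles are alike.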

How the data were processed

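Poly(A) RNA from 4 libraries was sequenced, 2 per group by the sample titles. The submitters' processing notes name TopHat2 2.1.1, Cufflinks 2.2.2, Cuffdiff and mm9. The sources used here do not give the annotation or the strand setting. Per the file headers, the authors deposited estimated counts (fragments per gene before scaling, 97.6% of values exactly whole), a scaled fragment signal (1 factor per library) and FPKM. The deposited table numbers replicates 0 and 1, read here as 1 and 2, so the numbers only name libraries. Rounded counts were tested with edgeR 4.0.16 in R 4.3.3 (filterByExpr, TMM, glmQLFTest, no covariate), with Benjamini-Hochberg adjustment over 13008 genes and a threshold of 0.05. The biological coefficient of variation was 11.3%. The labels tie no library to its own mouse, so the spread behind the p-values may be technical. The chi-square per gene between replicates was 17.7 in MIG and 9.49 in BATF. SE is the unshrunk coefficient over the square root of F, and 95% intervals use edgeR's degrees of freedom. Scripts were tested on simulated data.

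The genes and lists were chosen with earlier results of these data known. Genes were named if they were among the 8, if a listed gene was called, or if they were Tyrobp, H2-T23, Cd69, Ncr1, Klrb1c, Cd8a, Cd8b1 or Batf. Other genes, among them Nfil3, Itgax, Itgam, Zbtb7b, Ikzf2, Cd79b, Clec2d, B2m and Klra5, were shown outside this rule. Cell type markers among these had a high mean CPM in their list or were called by DESeq2. The 3 nearest genes to Klrk1 and Nkg7 had to average at least 5 CPM. Alternatives were DESeq2 1.42.0, relative log expression factors, no filter, a replicate block, limma 3.58.1 on log2(FPKM + 1) or log2(FPKM + 0.1) for genes with at least 1 FPKM in 2 libraries, and each library left out. The FPKM log2 values were computed from the deposited FPKM.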

Additional observations from a re-analysis of the deposited data

How the results depend on the processing

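Of the 13008 genes, 142 were called with all libraries and edgeR, 115 higher and 27 lower. DESeq2 called 345, edgeR without a filter on low counts 349, limma 46 on log2(FPKM + 1) and 51 on log2(FPKM + 0.1), and edgeR 248 to 589 with 1 library left out. Relative log expression factors gave 146. Each of these fits called 0 of the 5 genes it tested of the 8 (all 8 were tested without the filter). With the replicate number as a block, 1504 genes (11.6%) and 3 of the 5 tested were called, namely Klrk1 (log2 fold change 0.56, edgeR adjusted p = 0.000536), Klrc1 (0.48, 0.0203) and Hcst (−0.38, 0.0268). The block also called Cd69 (edgeR adjusted p = 3.86e-14), Cd8a (2.29e-08) and Cd8b1 (0.0024), all lower. That fit leaves 1 residual degree of freedom. Same-numbered libraries deviated together with a correlation of 0.181 over genes, but with 2 pairs and no label for a shared source the libraries share a number and no more. Over all 10 alternatives the log2 fold change kept its sign in each of the 5 tested genes, at 0.46 to 0.63 for Klrk1, 0.18 to 0.82 for Klrc1, −0.41 to −0.04 for Klrd1, −0.45 to −0.31 for Hcst and −0.20 to −0.09 for Nkg7. Fits with 1 library left out take the spread of a single library from the group that still has 2. Depth limits Klrc2, Klrg1 and Klre1.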

Other observations

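A few genes of the lists differed more between the library numbers than between the groups, and are given as values. Cdh1, which encodes E-cadherin, a ligand of KLRG1, stood at 5.11 and 42.6 CPM in MIG and 2.48 and 9.74 CPM in BATF. Cd244, a receptor of NK cells and CD8 T cells, stood at 5.23 and 15.0 CPM in MIG and 3.74 and 11.2 CPM in BATF. In both genes replicate 2 was the higher library of each group. Both were picked after their values were seen. In Klrd1 and H2-T23, whose values are given above, replicate 1 was the higher library of each group.

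Below 1 CPM in every library were 6 of 7 listed B cell markers and 9 of 12 myeloid and dendritic cell markers. The same held for 9 of 10 erythroid, platelet and stromal markers, but for only 1 of 5 CD4 and regulatory T cell markers. Cd79b, a chain of the B cell receptor complex, was at 17.2 and 13.8 CPM in MIG and 12.4 and 11.2 in BATF (edgeR adjusted p = 0.435). Itgax was at 18.1 and 21.6 CPM in MIG and 34.4 and 31.5 in BATF (adjusted p = 0.0716 in edgeR and 0.00265 in DESeq2). Itgam, of the same list, was at 7.68 and 3.20 CPM in MIG and 6.49 and 2.62 in BATF (edgeR adjusted p = 0.946). Zbtb7b, a factor of helper T cells, was at 22.96 and 17.9 CPM in MIG and 44.2 and 34.9 in BATF (adjusted p = 0.0658 in edgeR and 0.000148 in DESeq2). Ikzf2, of the same list, was at 16.3 and 18.1 CPM in MIG and 13.7 and 15.6 in BATF (edgeR adjusted p = 0.689). Of the 5 genes of that list, 2 had a positive and 3 a negative log2 fold change. The summed B cell markers were 18.6 and 15.1 CPM in MIG and 14.0 and 12.5 in BATF, and those of erythroid, platelet and stromal cells 3.10 and 5.87 against 4.69 and 5.88. The summed myeloid and dendritic cell markers were 30.2 and 29.4 CPM in MIG and 47.4 and 39.0 in BATF. Without Itgax that sum was 7.72 to 12.1 CPM in MIG and 7.49 to 13.0 in BATF. The summed CD4 and regulatory T cell markers were 43.3 and 39.0 CPM in MIG against 61.4 and 52.9 in BATF. Without Zbtb7b that sum was 20.3 to 21.1 CPM in MIG and 17.2 to 18.0 in BATF.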
